A study of Mus musculus with 171 samples.

Results

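Pim1, Pim2, Pim3, Sgk1, Icam1, Bcl6, Sbno2, Ier3 and Junb are genes that cytokine signalling is known to induce in many cell types, several of them through STAT3. They were found by matching the Ensembl identifiers of the count table to gene symbols, and all 9 were present among the 49671 gene rows. They were read here in single cells of mouse blastocysts, with 171 cells from 17 embryos. All cells were either homozygous for a Stat3 null allele (genotype Stat3 -/-, called MUT) or carried intact Stat3 (Stat3 +/+, called WT), and the labels name no treatment. At E3.5 the cells came from the inner cell mass (ICM), with 55 cells of 5 MUT embryos and 64 cells of 5 WT embryos. At E3.75 they came from the epiblast (EPI), which forms the embryo proper, and the primitive endoderm (PrE), which forms the yolk sac. The E3.75 groups were 9 MUT EPI and 14 MUT PrE cells of 4 embryos, and 19 WT EPI and 10 WT PrE cells of 3 embryos. The labels do not say how the null allele was made.

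Leukaemia inhibitory factor and related cytokines bind receptors that share the subunit gp130, which activates JAK kinases. The JAK kinases phosphorylate STAT3, and its dimers bind palindromic sites of the form TTCNNNGAA. In mouse embryonic stem cells this pathway supports self-renewal, and in the blastocyst it is known for its part in maintaining the epiblast during delayed implantation. PIM kinases are serine/threonine kinases with no known regulatory domain, so their activity follows their abundance, and they promote translation and survival.

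The 250 bases before each annotated RefSeq transcription start (RefSeq, GRCm38.p6, the same sequence as mm10) were searched for TTCNNNGAA, which is its own reverse complement and so reads the same on both strands. Of the 18 start windows of the 9 members, 6 windows of 4 members held a match, and none was found in those of Pim1, Pim2, Pim3, Ier3 and Junb. Among all 32851 windows of that length, 7.02% held the motif, and 0.913% held its stricter form TTCCNGGAA. Counted by gene, these were 8.13% and 1.09% of 27025 genes. The members have more windows per gene than that background, so 4 of 9 members is not directly comparable with 8.13%. The 4 windows with a match are shown because they belong to the 4 members with matches (for Bcl6 and Sbno2, which have more than 1, the one with the strict form), and the Pim3 window is shown as one without. Capitals mark the motif, and each sequence runs 5' to 3' on the gene's strand.
Icam1, chr9:21015690-21015939 (+): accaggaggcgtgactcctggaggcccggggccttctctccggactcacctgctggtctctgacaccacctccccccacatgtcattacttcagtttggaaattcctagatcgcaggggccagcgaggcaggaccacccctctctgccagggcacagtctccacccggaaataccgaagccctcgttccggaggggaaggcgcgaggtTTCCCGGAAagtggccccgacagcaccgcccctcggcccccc
Sbno2, chr10:80101188-80101437 (-): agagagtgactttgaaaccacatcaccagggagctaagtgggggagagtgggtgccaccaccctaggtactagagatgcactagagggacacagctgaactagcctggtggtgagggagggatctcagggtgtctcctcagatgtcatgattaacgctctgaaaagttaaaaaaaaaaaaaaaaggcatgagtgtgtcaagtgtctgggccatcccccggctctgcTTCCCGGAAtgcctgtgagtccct
Bcl6, chr16:23981284-23981533 (-): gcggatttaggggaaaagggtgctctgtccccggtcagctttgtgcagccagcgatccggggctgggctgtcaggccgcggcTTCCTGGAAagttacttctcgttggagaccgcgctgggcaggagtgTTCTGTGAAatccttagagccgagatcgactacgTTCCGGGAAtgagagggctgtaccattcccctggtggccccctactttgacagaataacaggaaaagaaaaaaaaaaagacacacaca
Sgk1, chr10:21881934-21882183 (+): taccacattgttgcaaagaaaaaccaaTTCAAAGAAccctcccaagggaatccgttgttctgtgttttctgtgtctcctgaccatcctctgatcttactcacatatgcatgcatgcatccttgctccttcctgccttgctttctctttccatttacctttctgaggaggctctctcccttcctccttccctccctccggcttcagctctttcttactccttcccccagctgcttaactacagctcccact
Pim3, chr15:88861944-88862193 (+): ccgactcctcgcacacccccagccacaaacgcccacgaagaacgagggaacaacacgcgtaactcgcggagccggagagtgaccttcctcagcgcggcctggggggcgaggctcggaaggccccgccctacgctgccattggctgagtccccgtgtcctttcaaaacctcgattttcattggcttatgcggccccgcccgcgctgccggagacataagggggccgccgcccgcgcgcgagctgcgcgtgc
The Icam1 match TTCCCGGAA began 42 bases before the start, and the same 9 letters stood 24 bases before a start of Sbno2. The Bcl6 window held 3 matches, of which TTCCTGGAA and TTCCGGGAA are the strict form. The single Sgk1 match, TTCAAAGAA, lay 223 bases before the most upstream start. A match describes letters, not binding, and a window without one says nothing of sites elsewhere.

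Counts of all cells of an embryo and lineage were summed, which gave 24 sums, and levels below are counts per 1000000 counts (CPM) scaled by the trimmed mean of M-values (TMM). A sum held from 8117787 to 122331780 counts. The median total per cell was 3404703 in MUT ICM and 5064705 in WT ICM, and between 10407966 and 11168799 in the 4 E3.75 groups. Stat3 itself was lower in MUT. It stood at 6.38 ± 5.73 CPM in MUT and 70.3 ± 24.6 in WT ICM (SD, n = 5 and 5, exact two-sided permutation p = 0.00794). In EPI it was 8.71 ± 12.2 against 137 ± 43.1, and in PrE 12.8 ± 5.63 against 91.5 ± 58.3 (SD, n = 4 and 3, exact permutation p = 0.0571 in each, the smallest p that 35 splits allow). No MUT embryo reached the lowest WT embryo of its lineage. Title letters D to H occur only at E3.5 and A to C only at E3.75, so the stage, the letter and the depth cannot be told apart. At E3.75 letter B occurs only in MUT and letter C only in WT, while A occurs in both. Read from 4 Y-linked genes against Xist, 4 of 4 MUT and 1 of 3 WT E3.75 embryos were male. In the ICM 1 of 5 MUT and 3 of 5 WT embryos were. Genotype is therefore in part tied to the letter at E3.75 and to sex in each lineage. In bulk-like sums of cells, fewer cells that express a gene and less RNA per cell cannot be told apart either. Nothing in the labels says that embryos came from separate litters, so p-values measure the spread between these embryos.

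Several sums need to be known before the results. One of the 10 WT PrE cells, in embryo 1, held 10469 CPM of trophectoderm marker genes (the outer layer of the blastocyst) against 192 CPM of PrE markers and 101 CPM of EPI markers. It raised the trophectoderm marker sum of that embryo to 3978 CPM, against at most 1143 CPM in the sums of the other 5 groups. The whole PrE sum of that embryo held 1324 CPM of PrE markers, against 4114 and 4714 CPM in the other WT PrE sums. It also held 1237 CPM of EPI markers, against 372.5 and 243 CPM in those sums. The MUT EPI sum of embryo 2 and the WT PrE sum of embryo 3 are 1 cell each. MUT ICM embryo 10 supplied 19 of the 55 MUT ICM cells and had 4280 CPM of PrE markers, against at most 1507 CPM in the other MUT ICM sums. The summed EPI markers also differed by genotype in the ICM, with 372 to 922 CPM in MUT and 2185 to 3007 CPM in WT, and all 8 of them had counts in each of these sums. In EPI the same markers stood at 1125 to 2691 CPM in MUT and 2728 to 3258 CPM in WT, again with no overlap. In the PrE groups they stood at 56.3 to 152 CPM in MUT and 243 to 1237 CPM in WT.

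**Figure D1:**
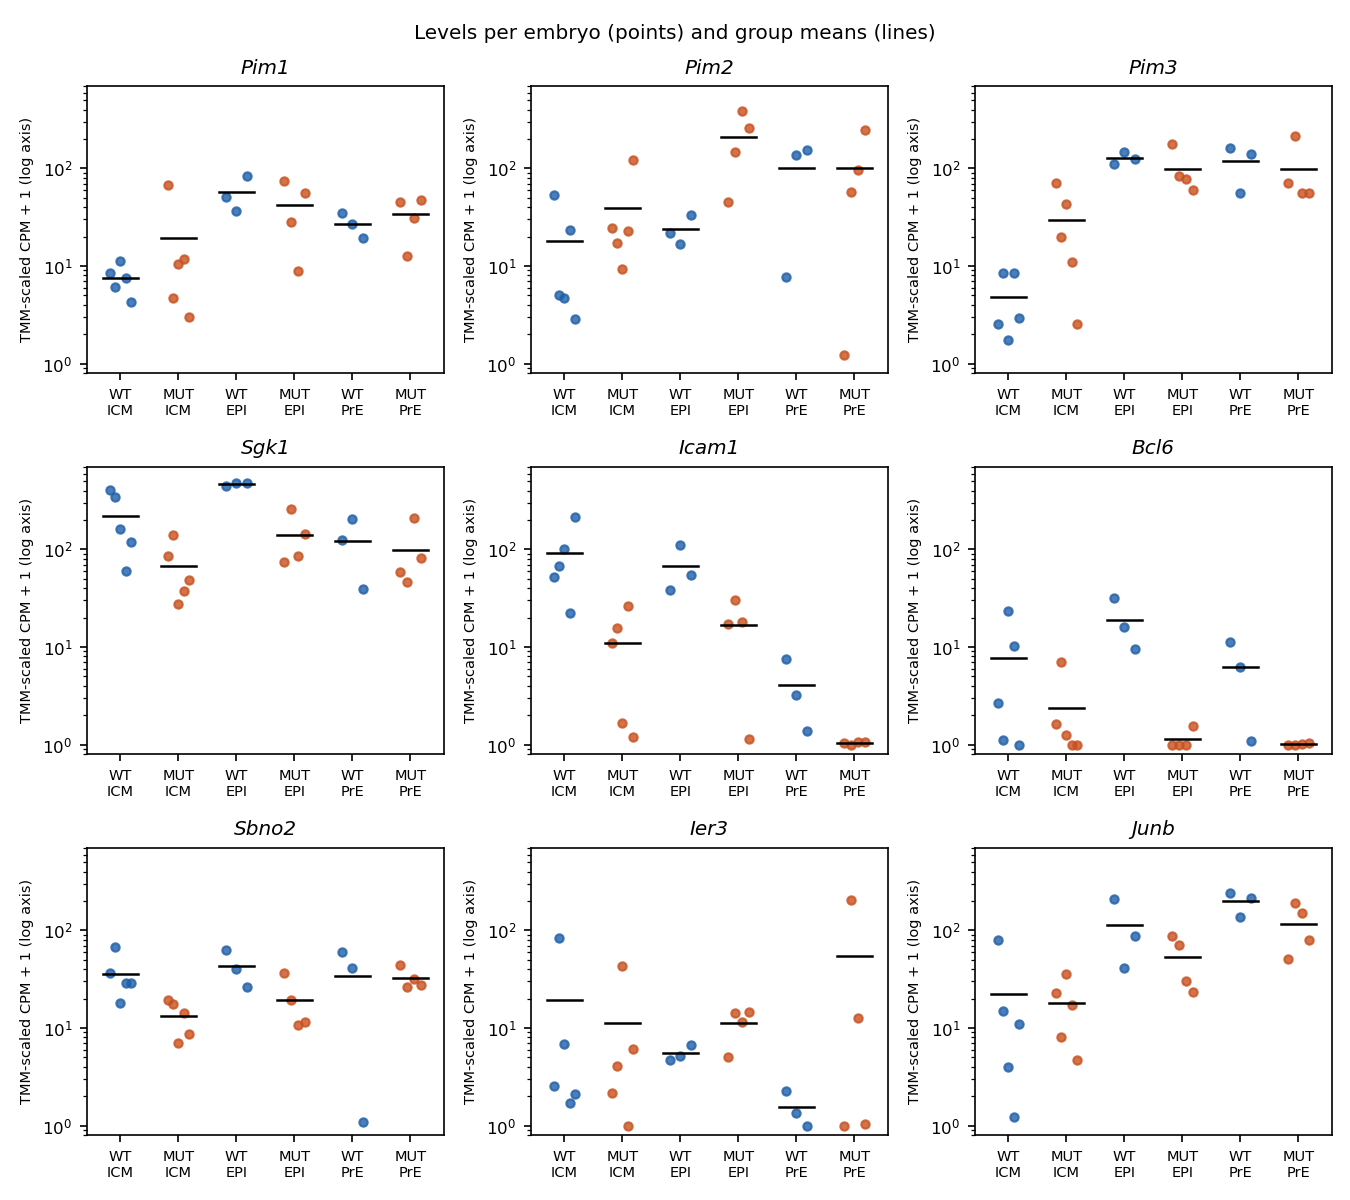
Level of each member in every sum of embryo and lineage, in TMM-scaled CPM on a log axis with 1 added, with 1 point per embryo and a bar at the group mean, for the 6 groups. Pim3 stands at 7.42 CPM or less in the 5 WT ICM embryos and at 55.1 CPM or more in all E3.75 embryos, while Icam1 is below 0.1 CPM in all 4 MUT PrE embryos.

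The first question was whether loss of Stat3 went with lower levels of these genes. Sgk1, Icam1, Sbno2 and Bcl6 had lower fitted levels in MUT in the ICM and EPI, except for Bcl6 in the ICM under 1 alternative, and the PIM kinases did not share a direction. Junb had negative estimates in all 3 lineages, but its ICM estimate changed sign in 4 of 17 alternatives. In PrE 6 of the 8 tested members had lower fitted levels in MUT, among them Icam1, which was lower in every MUT embryo. Of all genes tested in PrE, 51.7% had higher fitted levels in MUT. No member passed the threshold in the ICM, EPI or PrE with edgeR's quasi-likelihood test at a Benjamini-Hochberg adjusted p under 0.05, and neither did any other gene, so that 0% of the 12270, 12298 and 11765 genes tested were called. At an unadjusted p under 0.05 there were 4 of 9 members in the ICM, 3 of 9 in EPI and 1 of 8 in PrE, where Bcl6 failed the filter on low counts. The shares of all tested genes at that level were 6.64%, 4.63% and 4.63%. Both the counts and the shares mix genes higher and lower in MUT. The ICM members were Sgk1, Icam1 and Sbno2, which were lower, and Pim3, which was higher. In EPI they were Sgk1 and Bcl6, which were lower, and Pim2, which was higher. In PrE it was Icam1, which was lower. With DESeq2, 0 members were called in the ICM and PrE, beside 0.848% and 1.33% of genes, and 3 in EPI (Pim2, Sgk1 and Bcl6), beside 1.52%. Of these, Pim2 was higher and Sgk1 and Bcl6 were lower in MUT, and Bcl6 passed the filter on low counts only through its WT sums. With limma-trend none was called in the 3 lineages, beside 0.0163%, 0% and 0% of genes. A limma-voom fit on single ICM cells with the embryo as a block called Pim3 and 9.8% of all genes, and since its units are cells, no result is read from it. The median log2 fold change of the tested members, MUT against WT, was -0.78 in the ICM, -1.07 in EPI and -0.20 in PrE, beside -0.05, 0.04 and 0.03 over all genes.

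Counting embryos, no member had all MUT embryos below or all above WT in the ICM, where 1.11% of genes were lower and 0.554% higher in this sense. In EPI, 3 of 9 members (Sgk1, Icam1 and Bcl6) were lower in every MUT embryo, beside 5.87% of all genes. The summed EPI markers were lower in every MUT EPI embryo too. Gene by gene they were split, with 5 of 8 lower and 3 higher by fitted difference and a median log2 of -0.28. The part of the EPI markers in the differences of Sgk1, Icam1 and Bcl6 was not tested. Pim2 was the 1 member higher in every MUT EPI embryo, beside 1.89% of genes. In PrE, 1 of 8 tested members (Icam1) was lower in every MUT embryo, beside 3.12% of genes, and 0 were higher, beside 3.59%. Bcl6 in EPI, with 19 MUT counts, and Icam1 in PrE, with 9, passed the filter on low counts through their WT sums. A gene that passes in this way is nearly bound to be lower in MUT, so nothing is drawn from these entries.

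Sgk1, a kinase that regulates ion channels and transport and acts downstream of PI3K, was the most abundant member per kilobase in WT ICM and WT EPI. In WT ICM its levels were 58.9, 118, 161.5, 346 and 410.1 CPM, and in MUT ICM 26.5, 36.5, 47.3, 84.7 and 138.5 CPM. The ranges overlapped, with 3 of 5 MUT embryos below the lowest WT embryo. The fitted log2 difference was -1.76 ± 0.58 (SE), with an edgeR adjusted p of 0.727. In EPI the WT embryos lay close together, at 444, 474.5 and 479.8 CPM, and the MUT embryos at 73.15, 84.35, 142 and 258 CPM, so the genotypes were apart. The difference there was -1.69 ± 0.43 on the log2 scale, with an edgeR adjusted p of 0.339. In PrE the ranges overlapped fully, with 38.5, 123 and 205 CPM in WT and 45.4, 57.9, 81.6 and 207 CPM in MUT. The PrE difference was -0.34 ± 0.66 and turned to 0.22 without WT embryo 2. It was 1.32 with a sex term and 1.87 with a title letter term, but at E3.75 either term leaves WT embryo 3 as the only WT sum behind the genotype difference, in PrE a single cell.

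Icam1, a cell surface ligand of leukocyte integrins and a textbook STAT3 and NF-kB target, had its strict motif match in the window printed above. Its WT ICM levels were 21.2, 51.5, 67.2, 101 and 212 CPM, and those in MUT ICM were 0.208, 0.674, 9.94, 14.5 and 25.2 CPM. Of the MUT embryos, 4 of 5 lay below every WT embryo. The log2 difference was -3.15 ± 1.05, with an edgeR adjusted p of 0.727. EPI levels were 37.8, 54.0 and 110.4 CPM in WT and 0.146, 16.1, 17.1 and 29.45 CPM in MUT, a difference of -2.05 ± 1.18 with an edgeR adjusted p of 1. The EPI groups did not overlap, but the fitted difference was under 2 SE. In PrE Icam1 was low in both genotypes, at 0.391, 2.25 and 6.54 CPM in WT and at 0, 0.0435, 0.0601 and 0.072 CPM in MUT. The 4 MUT sums held 9 Icam1 counts in all, and the 3 WT sums held 376. In WT PrE, 1 cell held 95.7% of the Icam1 counts of embryo 1, and 1 cell held 83.4% of those of embryo 2. The PrE log2 difference was -6.02 ± 1.65, with an edgeR adjusted p of 0.940. The trophectoderm-marked cell is part of the WT PrE value of 6.54, which was 9.82 CPM without that cell, and in the fit without it Icam1 failed the filter on low counts and gave no value. Icam1 also moved with the EPI markers over the 24 sums (Pearson r = 0.806, Spearman rho = 0.869), and with the group means taken out r was 0.203. The sums share stage, depth and genotype, and the part of the EPI markers in the Icam1 difference was not tested.

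Bcl6, a zinc finger repressor known from germinal centre B cells, was the least abundant member per kilobase in 5 of the 6 groups. WT EPI embryos held 8.56, 15.02 and 30.6 CPM, and 3 of 4 MUT EPI embryos held no Bcl6 count, the remaining one being at 0.555 CPM. In counts this is 19 over the 4 MUT EPI sums and 3613 over the 3 WT EPI sums. The fitted difference was -6.89 ± 2.2 on the log2 scale, with an edgeR adjusted p of 0.569. Its size rests on near-empty sums. In WT PrE Bcl6 was at 0.0782, 5.255 and 10.3 CPM, and in MUT PrE at 0, 0, 0.0179 and 0.0301 CPM, from 3 counts in all. In WT PrE, 1 cell held 84.1% of the Bcl6 counts of embryo 1, and 1 cell held 97.9% of those of embryo 2. The ICM groups overlapped, with 0, 0.105, 1.66, 9.13 and 22.6 CPM in WT and 0, 0, 0.253, 0.626 and 6.01 CPM in MUT. The ICM estimate of -2.33 ± 1.98 became 0.20 when limma-voom was run on single cells.

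Sbno2, a strawberry notch homologue that acts as a transcriptional corepressor in cytokine responses, was at 17.15, 27.9, 28.2, 35.6 and 66.3 CPM in WT ICM and at 6.065, 7.70, 13.3, 16.5 and 18.5 CPM in MUT ICM. Only the highest MUT embryo and the lowest WT embryo crossed. The ICM difference was -1.51 ± 0.69, with an edgeR adjusted p of 0.749. EPI values were 25.3, 39.6 and 62.4 CPM in WT and 9.80, 10.5, 18.4 and 35.6 CPM in MUT, a difference of -1.15 ± 0.64. PrE values were 0.0782, 40.1 and 58.9 CPM in WT and 25.2, 26.7, 30.5 and 43.65 CPM in MUT, and these overlapped. The low WT value is the sum of a single cell. The PrE estimate of -0.09 ± 1.30 was 8.58 with a sex term and 8.41 with a title letter term, both of which set MUT against that single cell, so no call is read from them.

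Among the PIM kinases, Pim3, which is expressed in embryonic stem cells, had the largest positive ICM estimate of the members. It was at 0.755, 1.54, 1.93, 7.40 and 7.42 CPM in WT ICM and at 1.56, 10.02, 18.6, 42.3 and 70.3 CPM in MUT ICM. Of the 5 MUT embryos, 4 were above all WT embryos. The log2 difference was 2.88 ± 1.08, with an edgeR adjusted p of 0.727, and it was 2.37 without MUT embryo 10. In EPI Pim3 was at 109.6, 124 and 146 CPM in WT and at 59.0, 77.6, 81.7 and 176 CPM in MUT, and in PrE at 55.1, 139.8 and 163 CPM in WT and at 55.1, 55.5, 70.0 and 215 CPM in MUT. Both E3.75 pairs overlapped, with estimates of -0.31 ± 0.39 and -0.30 ± 0.61, and the PrE one turned to 0.37 with embryo number as a replicate block.

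Pim1, the founding member of the family, was at 3.24, 5.04, 6.6, 7.44 and 10.2 CPM in WT ICM. The MUT ICM embryos were at 1.98, 3.72, 9.60, 10.7 and 66.7 CPM, and the last of these is embryo 10. The estimate of 1.45 ± 1.03 fell to 0.13 without that embryo. Pim1 in EPI was at 35.3, 50.5 and 82.15 CPM in WT and at 7.93, 27.1, 54.4 and 73.45 CPM in MUT. In PrE it was at 18.1, 26.1 and 33.6 CPM in WT and at 11.7, 30.1, 44.5 and 46.3 CPM in MUT. The genotypes overlapped in each lineage, and the E3.75 estimates were -0.41 ± 0.70 and 0.32 ± 0.62. Both of these changed sign with embryo number as a replicate block, to 0.14 and -0.38.

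Pim2, the X-linked family member, was the member with the largest positive EPI estimate. WT EPI embryos were at 15.65, 20.9 and 32.3 CPM and MUT EPI embryos at 44.2, 147, 259 and 387 CPM, with no overlap. The log2 difference was 3.23 ± 0.71, with an edgeR adjusted p of 0.325. All 4 MUT E3.75 embryos were read as male from 4 Y-linked genes against Xist, and 1 of 3 WT embryos was. With sex as a term the difference was 2.75 and with title letter 3.36, each against the 1 WT embryo of that sex or letter. The part of sex and letter in it was not tested. The WT ICM levels of 1.87, 3.675, 4.02, 22.4 and 52.6 CPM and the MUT ICM levels of 8.255, 16.15, 22.1, 23.6 and 120.3 CPM overlapped, and their difference was 1.17 ± 1.02. With a sex term the ICM difference was 1.29. PrE levels spread from 6.73 to 154.5 CPM in the WT embryos and from 0.218 to 246 CPM in the MUT embryos, and the difference was -0.02 ± 1.53.

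Junb, an AP-1 subunit, and Ier3, an immediate early gene that modulates cell survival, gave estimates that turned with single embryos. Junb in the ICM was at 0.214, 3.004, 9.86, 13.97 and 78.4 CPM in WT and at 3.71, 7.17, 16.3, 22.04 and 35.04 CPM in MUT. Its estimate of -0.35 ± 1.14 became 1.33 without WT embryo 13, and it was positive with limma-trend (0.46), a sex term (0.95) and limma-voom on cells (1.16). In EPI Junb was at 40.2, 87.5 and 208 CPM in WT and at 22.45, 29.1, 69.4 and 86.3 CPM in MUT. In PrE it was at 136, 214 and 242 CPM in WT and at 50.2, 78.5, 149.7 and 188 CPM in MUT. The ranges overlapped in both E3.75 lineages, and the differences were -1.07 ± 0.67 and -0.79 ± 0.46.

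Ier3 was at 0.693, 1.11, 1.54, 5.89 and 83.4 CPM in WT ICM and at 0, 1.17, 3.12, 5.03 and 42.4 CPM in MUT ICM. The ICM estimate of -0.78 ± 1.55 became 2.19 without WT embryo 16, 2.56 with a sex term and 0.27 with limma-voom on cells. In EPI Ier3 stood at 3.72, 4.12 and 5.66 CPM in WT and at 4.08, 10.6, 13.2 and 13.6 CPM in MUT. In PrE it stood at 0, 0.359 and 1.26 CPM in WT and at 0, 0.0301, 11.55 and 205 CPM in MUT. The highest value came entirely from 1 cell of embryo 2, and the PrE estimate was 6.58 ± 3.23. Reads of the Junb and Prdx2, Pim1 and Gm26885, Icam1 and Gm47079, and Bcl6 and Gm37419 pairs, which overlap on opposite strands, cannot be told apart, since the strand setting is not given.

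**Figure D2:**
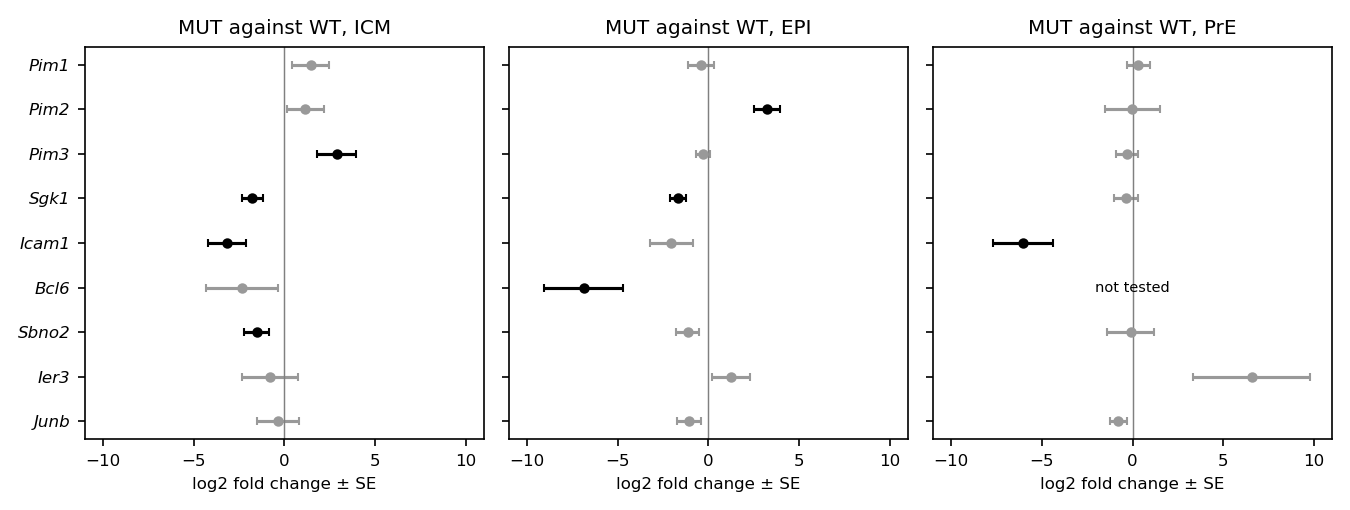
Log2 fold change of MUT against WT for the members in each lineage, with bars of 1 SE as derived from the edgeR quasi-likelihood test and a line at 0; black marks an unadjusted p under 0.05, grey the rest, and Bcl6 was not tested in PrE. Icam1, Sgk1, Sbno2 and Junb lie below 0 in all 3 lineages, and no point passes an adjusted p of 0.05.

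Of the members with a motif match, Sgk1, Icam1, Bcl6 and Sbno2, all 4 had negative fitted differences in the ICM and EPI. Junb, with no match in its window, also did, and so did Ier3 in the ICM and Pim1 and Pim3 in EPI. Over all 9 members, 6 had negative estimates in the ICM and 7 in EPI. Over all tested genes, 47.6% had positive estimates in the ICM and 52.5% in EPI. These counts describe 9 genes and are no test of the motif, and the Bcl6 and Junb ICM directions depend on the setting as given above.

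The second question was which of the members set the lineages apart within a genotype. In WT, Sgk1, Icam1, Pim1 and Ier3 were higher in every EPI embryo than in any PrE embryo, which is 4 of 9 members beside 11.5% of all genes tested. No member was lower in this sense, beside 7.02% of genes. No member passed edgeR's quasi-likelihood test (0.0314% of 12733 genes did). At an unadjusted p under 0.05 there were 2 of 9, beside 9.35% of genes. DESeq2 called 2, Sgk1 and Icam1, beside 5.71% of genes, and limma-trend called none, beside 0.055%. Icam1 was 67.4 ± 38.1 CPM in EPI and 3.06 ± 3.15 CPM in PrE (SD, n = 3 and 3), a log2 difference of 4.41 ± 1.10 with an edgeR adjusted p of 0.235. Sgk1 was 466.2 ± 19.2 CPM against 122 ± 83.2 CPM, a log2 difference of 1.91 ± 0.55 with an edgeR adjusted p of 0.288. Pim1 was 56.0 ± 23.9 against 26.0 ± 7.75 CPM, and the margin between its lowest EPI embryo (35.3 CPM) and highest PrE embryo (33.6 CPM) was small. Without the trophectoderm-marked cell, that PrE embryo was at 35.2 CPM. Ier3 was low, at 3.72 to 5.66 CPM in WT EPI and at most 1.26 CPM in WT PrE, with an edgeR adjusted p of 0.795. It reached 10 CPM in 5 of 19 WT EPI cells, and in WT EPI embryo 1 all its counts came from 1 cell. In MUT no member was called between EPI and PrE, where 1.65% of 10698 genes were, and 0 of 7 tested members were under an unadjusted p of 0.05, beside 10.2% of genes. DESeq2 and limma-trend called none there, beside 5.9% and 3% of genes. MUT EPI held Sgk1 at 139 ± 84.6 CPM and MUT PrE at 98.1 ± 74.4 CPM (SD, n = 4 and 4). No member's genotype effect was called to differ between EPI and PrE (0% of 14220 genes with edgeR). At an unadjusted p under 0.05 there were 0 members, beside 5.51% of genes, and DESeq2 and limma-trend called none, beside 2.4% and 0%.

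The third question was how the members stood at E3.75 against the E3.5 ICM. Pim3 rose in WT between E3.5 ICM and both E3.75 lineages. From at most 7.42 CPM in WT ICM it stood at 109.6 CPM or more in WT EPI, a log2 difference of 5.03 ± 0.78 with an edgeR adjusted p of 0.0429. Of all genes tested, 0.308% were called in this comparison. In WT PrE the difference was 4.99 ± 0.86 with an edgeR adjusted p of 0.04996, and 0.349% of genes were called. Both comparisons share the 5 WT ICM sums. Neither call was stable to leaving out embryos. The EPI call was kept only without WT ICM embryo 13 (adjusted p 0.0370) and lost without any of the other 7 embryos (up to 0.278). The PrE call was lost without any 1 of the 8 embryos (0.0636 to 0.161), and also without the 9 cells of low quality (0.0549), with DESeq2's scaling in edgeR (0.0527) and without sums of 1 cell (0.161). It was kept without the trophectoderm-marked cell (0.0456).

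The other members differed between the stages to varying degrees. Pim1 in WT EPI against ICM differed by 3.07 ± 0.57 on the log2 scale with an edgeR adjusted p of 0.0594. At an unadjusted p under 0.05 there were 2 of 9 members, Pim1 and Pim3, beside 14.1% of genes, and DESeq2 called the same pair, beside 7.65% of genes. With limma-trend 7 members (Pim1, Pim2, Pim3, Sgk1, Icam1, Bcl6 and Junb) were called, but so were 29% of all genes. Pim1, Pim3 and Sgk1 were higher in every WT EPI than in any WT ICM embryo, 3 of 9 members beside 8.64% of genes, and none was lower, beside 6.6%. In WT PrE against ICM, Pim1, Pim3 and Junb were higher in every embryo, 3 of 9 beside 6.24%, and Icam1 was lower in every embryo, 1 of 9 beside 8.1%. Icam1 was at 90.7 ± 73.9 CPM in WT ICM and 3.06 ± 3.15 CPM in WT PrE, a log2 difference of -4.87 ± 1.12 with an edgeR adjusted p of 0.0954. Junb was at 21.1 ± 32.5 CPM in WT ICM and 197 ± 54.9 CPM in WT PrE, a log2 difference of 3.18 ± 1.25. In this comparison 4 of 9 members were under an unadjusted p of 0.05, beside 14.8% of genes. DESeq2 called 3 (Pim1, Pim3 and Icam1), beside 8.95%, and limma-trend 3 (Pim1, Pim3 and Junb), beside 15.7%.

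In MUT, the stage steps were read from the same contrasts. Pim3 was 28.5 ± 27.8 CPM in MUT ICM, 98.6 ± 52.6 in MUT EPI and 98.8 ± 77.5 in MUT PrE (SD, n = 5, 4 and 4), with log2 differences of 1.82 for EPI and 1.79 for PrE. No member passed the edgeR test in MUT EPI against ICM, where 0.0682% of genes did. There were 2 of 8 members under an unadjusted p of 0.05, beside 8.08% of genes, 0 called by DESeq2, beside 3.42%, and 1, Pim2, by limma-trend, beside 1.9%. Pim2 was at 38.1 ± 46.4 CPM in MUT ICM and 209 ± 147 CPM in MUT EPI, a log2 difference of 2.41 with an edgeR adjusted p of 0.303. In MUT PrE against ICM no member passed either, beside 0.507% of genes. There were 2 of 8 under an unadjusted p of 0.05, beside 9.46% of genes, 2 called by DESeq2 (Icam1 and Junb), beside 4.63%, and 1 by limma-trend (Junb), beside 5.23%. Icam1 differed by -7.73 ± 2.04 with an edgeR adjusted p of 0.141, and Junb by 2.76 ± 0.69 with 0.115. Icam1 passed the filter on low counts there through its ICM sums, since the MUT PrE sums held 9 Icam1 counts in all.

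The difference between genotypes in the stage step was tested as an interaction, and 0% of genes were called for EPI minus ICM and for PrE minus ICM. Pim3 had interaction values of -3.20 ± 1.17 (edgeR adjusted p = 0.360) and -3.15 ± 1.25 (0.443). A difference between the genotypes in the Pim3 step was therefore not shown. The 1 other value under an unadjusted p of 0.05 was that of Ier3 in PrE minus ICM, at 7.45 with an edgeR adjusted p of 0.512. At that level stood 1 of 9 members for EPI minus ICM, beside 9.25% of genes, and 2 of 9 for PrE minus ICM, beside 9.2%. DESeq2 called no member in these interactions, beside 3.29% and 3.62% of genes, and limma-trend none, beside 0% in both.

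Immediate early and stress genes stood beside the stage difference of Pim3 and Junb. Their 12 listed genes summed to 152 to 369 CPM in WT ICM, to 993 to 1762 CPM in WT EPI and to 937 to 2484 CPM in WT PrE. In MUT the ICM sums were 138.5 to 617 CPM, those of EPI 1645 to 1942 CPM and those of PrE 675 to 2496 CPM. Egr1, a growth factor response gene of the list, was called higher in WT EPI than in WT ICM (log2 difference 3.24, edgeR adjusted p = 0.0244) and in WT PrE (4.55, 0.00855). Over the 24 sums Pim3 followed the list's summed level with Pearson r = 0.881 and Spearman rho = 0.834, and with group means removed r = 0.59. The corresponding values of Junb were 0.807, 0.789 and 0.545, and Junb itself is an immediate early gene. Their part in the Pim3 and Junb differences was not tested.

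**Figure D3:**
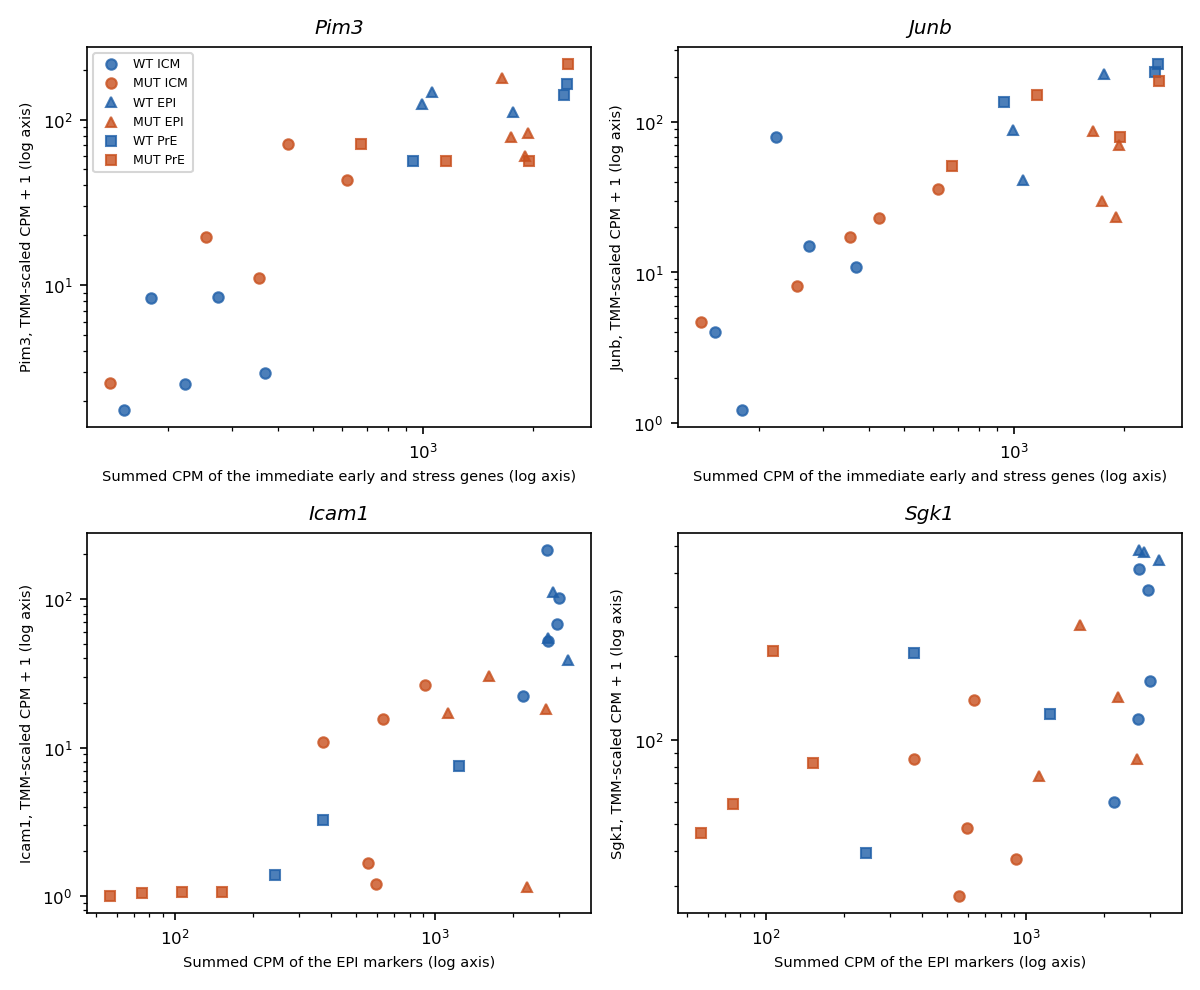
Level of Pim3 and Junb against the summed level of the immediate early and stress genes (top), and of Icam1 and Sgk1 against the summed level of the EPI markers (bottom), in TMM-scaled CPM on log axes with 1 added to the member's level, with 1 point per sum of embryo and lineage (color, genotype; shape, lineage). In the Pim3 panel (r = 0.881) the E3.75 sums lie to the right of the ICM sums, and above all WT ICM sums. MUT ICM embryo 10, at 70.3 CPM of Pim3, stands above the lowest E3.75 sum, at 55.1 CPM. The 5 WT ICM sums lie to the right of the 5 MUT ICM sums on the EPI marker axis.

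Single cells show whether these levels were shared by many cells. Pim3 reached 10 CPM in 11 of 64 WT ICM cells (17.2%) and in 30 of 55 MUT ICM cells (54.5%). In MUT embryo 10, all 19 cells reached 10 CPM of both Pim1 (median 66.2, lowest 30.4 CPM) and Pim3 (median 69.3, lowest 20.7 CPM). In the other 4 MUT ICM embryos, Pim1 reached that level in 2 of 5, 3 of 17, 2 of 4 and 0 of 10 cells, and Pim3 in 3 of 5, 5 of 17, 2 of 4 and 1 of 10 cells. Thus 1 embryo supplied 19 of the 26 Pim1-positive and 19 of the 30 Pim3-positive cells of the group, and 19 of the 21 cells positive for both. Both kinases were at 10 CPM or more in 7 of 64 WT ICM cells, 21 of 55 MUT ICM cells, 18 of 19 WT EPI and 7 of 9 MUT EPI cells, and 8 of 10 WT PrE and 10 of 14 MUT PrE cells.

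Icam1 was at 10 CPM or more in 25 of 64 WT ICM cells (39.1%) and 7 of 55 MUT ICM cells (12.7%). In EPI these were 18 of 19 WT cells (94.7%) and 4 of 9 MUT cells (44.4%), and in PrE 2 of 10 WT cells and 0 of 14 MUT cells. Cells of WT EPI were thus mostly Icam1-high, and those of MUT EPI were split. Bcl6 reached 10 CPM in 9 of 19 WT EPI cells (47.4%) and in 0 of 9 MUT EPI cells. Sgk1 reached it in 45 of 64 WT and 39 of 55 MUT ICM cells, almost the same share. The median of the pooled cells was 90.6 CPM in WT and 35.5 CPM in MUT, but the embryos overlapped. By embryo the Sgk1 median ran from 6.54 to 517 CPM in WT ICM and from 17.05 to 68.1 CPM in MUT ICM. WT embryos 21 (6.54 CPM) and 22 (14.1 CPM) lay below every MUT embryo. When each cell was thinned to 1000000 counts (8 MUT and 3 WT ICM cells being too shallow and left out), Icam1 was detected in 41 of 61 WT and 25 of 47 MUT ICM cells. Without thinning, it was detected in 55 of 64 and 39 of 55. Bcl6 was detected in 10 of 19 WT EPI cells and 2 of 9 MUT EPI cells after thinning, against 16 of 19 and 2 of 9 before. Cells of an embryo are not replicates, so shares of cells are given with no test. The median number of members at 10 CPM or more per cell was 3 in both ICM groups, 7 in WT EPI, 6 in MUT EPI, 5.5 in WT PrE and 6 in MUT PrE.

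**Figure D4:**
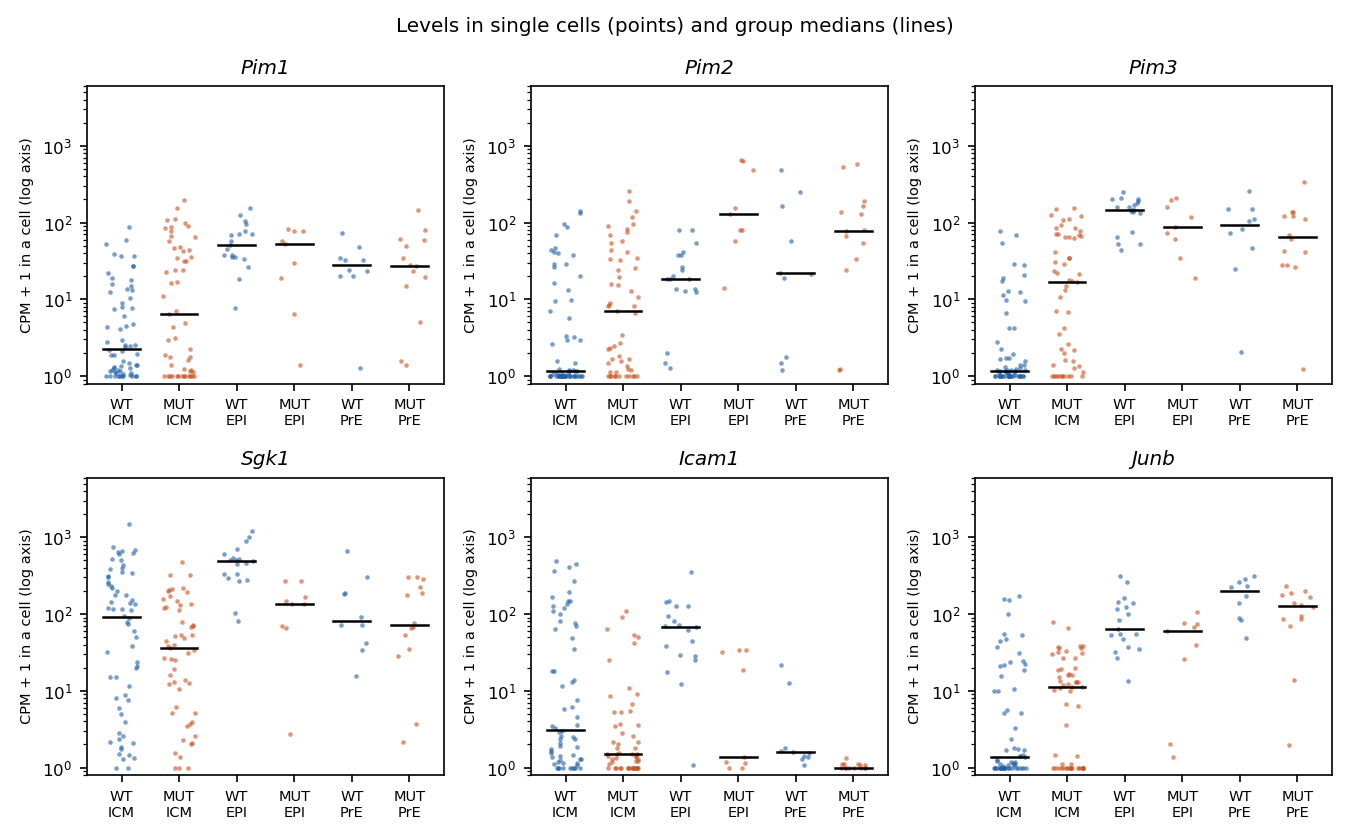
Level of 6 members in each cell, as CPM + 1 on a log axis, with 1 point per cell in the 6 groups and a line at the group median. The Pim3 median is 0.176 CPM in WT ICM and 15.6 CPM in MUT ICM, and the Icam1 median is 66.8 CPM in WT EPI and 0.392 CPM in MUT EPI. Among MUT ICM embryos the Pim3 median runs from 0.0614 CPM in embryo 24 to 69.3 CPM in embryo 10. By embryo the Icam1 median runs from 27.9 to 86.4 CPM in WT EPI and from 0.192 to 30.8 CPM in MUT EPI.

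Levels of different members were ordered per kilobase of exon. This order assumes reads along the whole transcript, which cannot be checked since the library method was not given. In WT ICM Sgk1 led at 44.6 ± 30.9 CPM per kb, followed by Icam1 at 20.8 ± 16.9, and each neighbour in the order overlapped the next. In WT EPI Sgk1 led at 95.1 ± 3.91 CPM per kb, and its lowest embryo stood above the highest of the next member, Pim3 at 52.1 ± 7.60. Pim2 led in MUT ICM at 13.6 ± 16.6 and in MUT EPI at 74.9 ± 52.7 CPM per kb, and it overlapped the next member in both. Junb led in PrE, at 85.7 ± 23.9 in WT and 50.7 ± 27.6 CPM per kb in MUT, also overlapping the next. Bcl6 was last in all groups except WT PrE, where Ier3 was.

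Among pairs of members over the 24 sums, Pim1 and Pim3 had the highest correlation of log2 levels (Pearson r = 0.733, Spearman rho = 0.677), then Pim3 and Junb (0.723 and 0.720). Sgk1 went with Sbno2 (0.562 and 0.529), Icam1 (0.560 and 0.556) and Bcl6 (0.523 and 0.539). These are descriptions of sums that share stage, depth and genotype. Among 7941 genes with a mean of at least 10 CPM, the pattern most like Pim3 was that of Anp32b (r = 0.939), then Ccnl1 (0.915) and the phosphatase gene Dusp1 (0.912). For Pim1 they were Ap2a1 (0.829), B3galt6 (0.802) and Arhgef1 (0.789), and for Pim2 Eefsec (0.768), Dusp9 (0.676) and Scamp1 (0.672). Frmd6 (0.733), St14 (0.720) and Slc25a20 (0.690) were most like Sgk1. For Icam1 they were Acadm (0.840), Tdgf1-ps1 (0.799, a near-identical copy of the EPI marker Tdgf1 whose reads are uncertain) and Aqp3 (0.788), and for Bcl6 Bcar3 (0.722), Gpr161 (0.671) and Akt2 (0.670). Hsd17b4 (0.820), Gas8 (0.810) and Prc1 (0.810) were nearest to Sbno2, Rbm25 (0.675), Nasp (0.654) and Rtf1 (0.6) to Ier3, and Mtdh (0.862), Arhgef1 (0.828) and Tm2d1 (0.824) to Junb. Of these 27 entries (Arhgef1 is listed for both Pim1 and Junb), 8 stayed in the member's top 3 by Spearman's rho and 3 with group means removed.

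No gene of the other pathway lists was called between the genotypes. Of 20 genes of cytokine receptors and JAK-STAT signalling, 15, 16 and 15 were tested between genotypes in the ICM, EPI and PrE, and none was called in either direction. Their median log2 differences were -0.36, -0.65 and -0.27, with 8, 13 and 11 genes lower and 7, 3 and 4 higher. The shares of all tested genes that were higher in MUT were 47.6%, 52.5% and 51.7%. In PrE the smallest p belonged to Socs3, the feedback inhibitor that STAT3 is known to induce, at 3.87 ± 3.91 CPM in MUT and 122 ± 105 CPM in WT, a log2 difference of -5.01 with an edgeR adjusted p of 0.940. Socs2 followed there at 20.5 ± 12.3 against 70.9 ± 31.9 CPM. In the ICM the smallest p belonged to Ptpn11, an adaptor phosphatase, at 48.2 ± 32.5 against 17.2 ± 12.03 CPM. In EPI it belonged to Osm, a cytokine of the family, which had 0 counts in all 4 MUT EPI sums and 5.73 ± 6.6 CPM in WT.

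Of 15 other genes known to be cytokine-induced, 11 were tested in each lineage and none was called. In the ICM 10 of the 11 were lower in MUT, with a median log2 difference of -0.94. In EPI and PrE 7 and 6 were lower, with medians of -0.19 and -0.13. Of all genes tested, 47.6%, 52.5% and 51.7% were higher in MUT in the ICM, EPI and PrE. Timp1, a metalloprotease inhibitor, was at 40.4 ± 15.2 CPM in MUT and 111 ± 66.4 CPM in WT ICM, and at 17.1 ± 18.4 against 91.3 ± 34.6 CPM in EPI. Hif1a, the oxygen-sensing factor, was the 1 gene of the list higher in MUT ICM, at 142 ± 79.5 against 39.2 ± 21.3 CPM. Of 14 relatives of the members, 8, 8 and 6 were tested, none was called, and the medians were 0.49, 0.37 and 0.13. Ier2, another immediate early gene, was at 125 ± 49.6 CPM in MUT and 52.1 ± 40.5 CPM in WT ICM. Between the stages Myc, the proliferation factor, was at 272 ± 127 CPM in WT EPI and 40.9 ± 19.3 CPM in WT ICM, with an edgeR adjusted p of 0.0534.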

How the data were processed

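The authors deposited a table of raw counts per gene, with 1 column for each of 171 cells and 49671 gene rows, each of which entered. STAR, HTSeq and the build mm10 are named per the submitters' processing notes. Versions, library method and strand setting were not given in the sources used here. Gene names and positions came from GENCODE vM21 (49412 rows matched). Stage, genotype and embryo come from the sample titles, since the source label gives E3.5 also for titles with E3.75. The first number of a title was read as its embryo, an assumption. Floors and intervals cover counting error only, since PCR copies are not independent molecules.

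Cells are not replicates, so counts were summed per embryo and lineage. No cell was removed or clustered, and doublets were not searched for. Each comparison was fitted with the quasi-likelihood test of edgeR (version 4.0.16 under R 4.3.3) after TMM scaling, with filterByExpr at a minimum count of 10 and robust dispersion, using Benjamini-Hochberg adjustment over all genes tested and a threshold of 0.05. The SE is the absolute log2 fold change over the square root of F, so it restates the test. DESeq2 1.42.0 and limma 3.58.1 were alternatives, as were other scaling, no filter, terms for sex and title letter, a replicate block and leaving out embryos. The edgeR script was tested on simulated data. The members, lists and alternatives were chosen with earlier results of these data known. The text names all members, Stat3, up to 4 called genes or the 2 with the smallest p per list and comparison where described, and the 3 genes most like each member. EPI and PrE sums of one embryo pair by design, and their deviations from group means correlated with r of 0.0375 to 0.158 over 11313 genes. Values are in CPM, with 1 added before taking log2.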

Additional observations from a re-analysis of the deposited data

Results flagged for a closer look

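Among 36 groups of 4 or 5 embryos, 9 had an embryo whose gap to its nearest neighbour passed Dixon's limit, which chance passes in about 1 in 20 groups of normally distributed values. These levels are skewed, several rest on 1 cell or are mostly 0, and the chance rate for such values was not computed. Pim1 stood at 66.66 CPM in MUT ICM embryo 10, beside at most 10.74 CPM in the others. Pim2 stood at 120.3 CPM in MUT ICM embryo 24 (next 23.58), with 74.06% of its counts from 1 cell. Pim3 stood at 214.6 CPM in MUT PrE embryo 2 (next 69.98). Bcl6 stood at 0.5554 CPM in MUT EPI embryo 5, the others being at 0, and at 6.006 CPM in MUT ICM embryo 18 (next 0.6264), with 98.66% of counts from 1 cell. Ier3 stood at 42.37 CPM in MUT ICM embryo 2 (next 5.028, 88.27% from 1 cell), at 205.0 CPM in MUT PrE embryo 2 (next 11.55, all from 1 cell) and at 83.38 CPM in WT ICM embryo 16 (next 5.89, 81.46% from 1 cell). Junb stood at 78.42 CPM in WT ICM embryo 13 (next 13.97, 53.68% from 1 cell).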

How the results depend on the processing

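Sums of 1 to 19 cells, and 3 to 5 embryos per group, limit these fits, and counts of called genes moved widely with the tool. For MUT against WT in the ICM (0 genes called) there were 3 without a filter, 104 with DESeq2, 2 with limma-trend, 1 without low-quality cells, 1203 with limma-voom on cells, and 0 to 1 leaving out embryos. DESeq2 called 187 in EPI and 157 in PrE, where a sex term gave 217. EPI against PrE in WT (4) gave 7 with DESeq2's size factors in edgeR, 32 without a filter, 727 with DESeq2, 7 with limma-trend, 0 with the embryo as a replicate block and 0 to 0 leaving out embryos. EPI against PrE in MUT (177) gave 631, 321 with limma-trend, 74 with the replicate block and 71 to 91. EPI against ICM in WT (43) gave 85 without a filter, 1069, 4048 and 0 to 162, and in MUT (8) 22, 401, 223, 0 without sums of 1 cell and 0 to 17. PrE against ICM in WT (46) gave 118, 1181, 2071, 0 without sums of 1 cell and 0 to 42, and in MUT (61) 108, 557, 630 and 14 to 169. For the interactions (0), DESeq2 gave 341, 518 and 565, and PrE minus ICM gave 4 without a filter, 1 without sums of 1 cell and 0 to 1 leaving out embryos. The trophectoderm-marked cell was left out as an alternative chosen after seeing the data.

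Called members changed from 0 to 1 with limma-voom in the ICM, to 3 with DESeq2 in EPI, to 1 with a sex term in PrE (against 1 WT cell), to 2 with DESeq2 in EPI against PrE in WT, to 1 with limma-trend in EPI against ICM in MUT, and to 2 with DESeq2 and 1 with limma-trend in PrE against ICM in MUT. From 1, they became 2 with DESeq2, 7 with limma-trend and 0 to 1 leaving out embryos in EPI against ICM in WT. In PrE against ICM in WT they became 0 with DESeq2's size factors, without low-quality cells and without sums of 1 cell, 2 without a filter, 3 with DESeq2, 3 with limma-trend and 0 to 0 leaving out embryos.

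Fold changes changed sign as follows, and the cause was not tested. In the ICM, limma-voom gave 0.20 for Bcl6, 0.27 for Ier3 and 1.16 for Junb, a sex term gave 2.56 for Ier3 and 0.95 for Junb, and limma-trend gave 0.46 for Junb. Leaving out embryos gave -2.98 to 2.19 for Ier3 and -0.84 to 1.33 for Junb. With the replicate block, which matches embryos that share only a number across genotypes (same-number r of -0.0358 to 0.135), Pim1 in EPI was 0.14 and Pim1 and Pim3 in PrE were -0.38 and 0.37. In PrE limma-trend gave -0.28 for Pim1, 0.12 for Pim2 and 0.86 for Sbno2. Pim2 was 0.017 without a filter, 0.48 without sums of 1 cell and 0.10 with a letter term. Sgk1 was 1.32 with sex and 1.87 with letter, and Sbno2 8.58 and 8.41. Leaving out embryos in PrE gave -0.97 to 0.48 for Pim2, -1.02 to 0.019 for Pim3, -1.001 to 0.22 for Sgk1 and -0.67 to 0.66 for Sbno2. The Stat3 difference kept its direction in all alternatives run.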
